A study of Mus musculus with 10 samples.

Results

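The 9 genes described here, *Dusp1*, *Dusp2*, *Dusp4*, *Dusp5*, *Dusp6*, *Dusp7*, *Dusp8*, *Dusp10* and *Dusp16*, encode dual-specificity MAP kinase phosphatases, and they were taken by name from a table of 29268 genes. Each library was made from uterine RNA of 1 female, and 5 HSD17B1TG and 5 WT females, all aged 4 months, were sequenced by RNA-seq. HSD17B1TG mice are FVB/N mice that carry the human *HSD17B1* cDNA behind a CMV-enhanced chicken beta actin promoter, which is active in most tissues, and WT mice lack this transgene. The enzyme converts estrone to the more potent estradiol. According to the methods of the study, HSD17B1TG females do not cycle and WT uteri were taken at random cycle phases in its histology, so that cycle phase and genotype cannot be told apart. The transgenic mice are called TG1 to TG5 here, and the controls WT1 to WT5.

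MAP kinases are switched on by phosphorylation of a threonine and a tyrosine in their activation loop, and the dual-specificity MAP kinase phosphatases switch them off by removing both phosphates. The family falls into nuclear enzymes whose genes are induced within minutes to hours of a stimulus (*Dusp1*, *Dusp2*, *Dusp4*, *Dusp5*), cytoplasmic enzymes that prefer ERK (*Dusp6*, *Dusp7*), and enzymes that prefer JNK and p38 (*Dusp8*, *Dusp10*, *Dusp16*). Many of these genes are transcribed in response to the kinase they restrain, which makes them part of negative feedback loops.

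Total counts on genes were 14817228 to 23271988 per mouse, and 3 counts corresponded to 0.129 to 0.202 CPM (counts scaled to library size), a limit that covers counting error only. The mitochondrial share of the counts was 4.92% ± 2.56 for HSD17B1TG and 3.07% ± 0.322 for WT (SD, n = 5, two-sided exact permutation test, p = 0.167). It was highest in TG4 (6.87%) and TG5 (7.57%), which also had the fewest genes with a count (21716 and 20507, against 21855 to 24383 in the other 8 mice). The share in TG1 was next (5.74%), and that in the remaining mice was 1.94% to 3.37%. Markers of epithelium, stroma and smooth muscle were detected in every mouse, as the label uterus implies. Their summed levels, in FPKM (fragments scaled by gene length and library size), ranged from 540 to 3564 for epithelium, from 629 to 2732 for stroma and from 451 to 7695 for smooth muscle. The separate uteri thus differed widely in the RNA of their tissue layers, and in whole tissue fewer cells of a type and less RNA per cell cannot be told apart.

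All 9 genes passed the filter on low counts and were tested. *Dusp5* and *Dusp8* rose in the HSD17B1TG uterus by 2.96-fold and 2.53-fold, and none of the 9 was called down. A gene was called when its adjusted p (edgeR quasi-likelihood test, Benjamini-Hochberg over 16993 genes) was under 0.05, its fold change over 2 and its mean FPKM over 1 in either group. Thus 2 of 9 phosphatases were called up, where 2.16% of all genes tested were, and 0 of 9 were called down, against 2.08% of all genes. These calls depended on single mice. With 1 mouse left out, 0 of 9 were called up in 7 of 10 fits (without TG2, TG4, TG5, WT1, WT2, WT3 or WT5), 1 without TG1, 2 without TG3 and 3 without WT4, while the genes called up ranged from 38 to 888. Without both TG4 and TG5, 0 of 9 were called, as was no other gene. With the adjusted p alone the same 2 of 9 passed, against 6.16% of all genes in either direction and 3.34% among those higher in HSD17B1TG. An unadjusted p under 0.05 was found for 4 of 9 (*Dusp5*, *Dusp8*, *Dusp6*, *Dusp7*), against 26.1% of all genes. Of the 9 genes 6 had a log2 fold change above 0, against 50.2% of all genes. The groups did not overlap for 2 of 9, against 6.69% of all genes in either direction, 4.04% with HSD17B1TG above WT and 2.65% with HSD17B1TG below WT. The median log2 fold change of all genes was 0.0021, and it was -0.17 when only library totals were used for scaling.

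**Figure D1:**
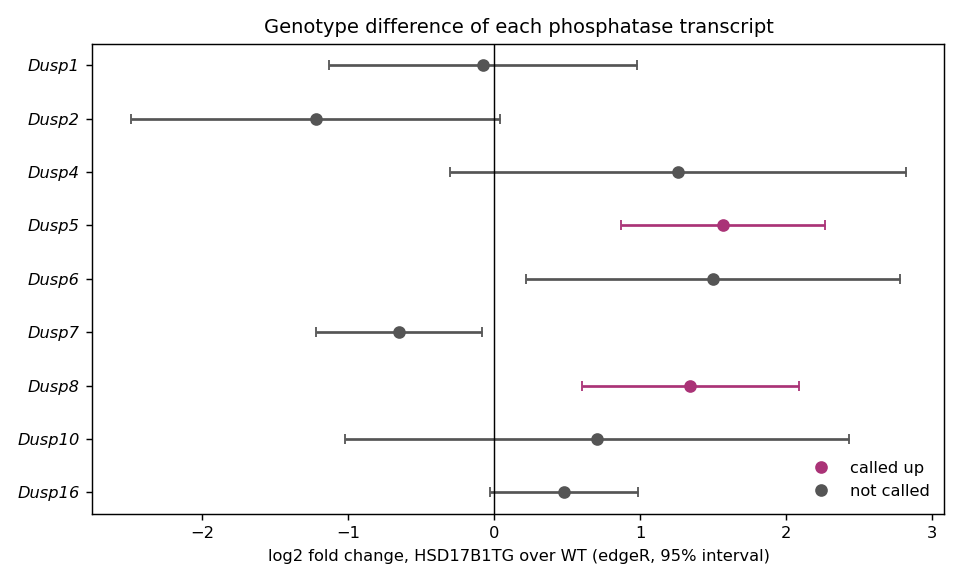
Log2 fold change of HSD17B1TG over WT for each phosphatase gene, with points for the edgeR estimate and bars for its 95% interval. *Dusp5* (1.57) and *Dusp8* (1.34) were called up, the interval of *Dusp6* lies above 0 and that of *Dusp7* below 0 although neither was called, and the other 5 intervals cross 0.

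*Dusp5* (ENSMUSG00000034765, GRCm38 chr19:53529109-53542431, plus strand, 4 exons) encodes a nuclear phosphatase that is selective for ERK and also holds ERK in the nucleus. A promoter window is available in RefSeq for 8 of the 9 genes, all but *Dusp4*, and runs from 250 bases before to 50 bases after an annotated start. That of *Dusp5* is shown because it holds 2 CArG boxes, the element bound by serum response factor, here in capitals. The boxes begin at -82 and -72 relative to the start. The sequence lies at chr19:53528895-53529194 (GRCm38.p6), plus strand, and its start lies inside the gene span given above.
Dusp5 promoter: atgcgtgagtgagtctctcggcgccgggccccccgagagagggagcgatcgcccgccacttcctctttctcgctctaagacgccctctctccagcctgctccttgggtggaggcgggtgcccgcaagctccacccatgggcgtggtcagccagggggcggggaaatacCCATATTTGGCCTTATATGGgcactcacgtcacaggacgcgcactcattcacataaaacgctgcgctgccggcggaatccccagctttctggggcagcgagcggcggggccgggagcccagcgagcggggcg
The CArG box was searched on both strands. It was found in 535 of 32851 windows (1.63%), and 2 or more were found in 6 windows (0.0183%). A match of letters is a description of the sequence, not a measured binding site.

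In HSD17B1TG mice *Dusp5* was at 3.88, 4.07, 4.21, 8.15 and 8.16 FPKM in TG1 to TG5, and in WT1 to WT5 it was at 1.99, 1.51, 1.23, 2.56 and 2.29 FPKM. Every HSD17B1TG mouse was above every WT mouse, and TG4 and TG5 stood well above the other 3 transgenic mice. These were the 2 libraries with the highest mitochondrial share and the fewest genes with a count, and the part of RNA quality in their *Dusp5* values was not tested. The group means were 5.69 ± 2.25 and 1.92 ± 0.548 FPKM (SD, n = 5). The log2 fold change was 1.57 ± 0.32 (SE; edgeR quasi-likelihood test, Benjamini-Hochberg adjusted p = 0.0263), with a 95% interval of the fold change from 1.82 to 4.81. When each mouse was left out in turn, the log2 fold change stayed between 1.40 and 1.69, and the adjusted p lay between 0.0139 and 0.0707. It passed 0.05 in 3 of these 10 fits and missed it without TG2, TG4, TG5, WT1, WT2, WT3 or WT5. Without both TG4 and TG5, a fit with 3 transgenic mice chosen after seeing the data, *Dusp5* had a log2 fold change of 1.07 ± 0.28 (SE; edgeR, adjusted p = 0.155). In that fit edgeR called 0 of 17794 genes in either direction, and 3126 had an unadjusted p under 0.05. An antisense gene, AC137853.2 (53528609 to 53529655), overlaps the beginning of *Dusp5* on the other strand. The strand setting of the counting is not given in the sources used here, so reads of the 2 genes in the shared stretch cannot be told apart.

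*Dusp8* (ENSMUSG00000037887, GRCm38 chr7:142079490-142095843, minus strand, 7 exons) encodes a phosphatase that acts on JNK and p38. Its promoter window and that of *Dusp1* are shown because they are the only ones of the 8 that hold the full cAMP response element TGACGTCA, in capitals, which is bound by CREB. In *Dusp8* it begins at -107 and again at -63, and in *Dusp1* at -143. The windows lie at chr7:142095235-142095534 and at chr17:26508423-26508722 (GRCm38.p6, RefSeq), both on the minus strand, and that of *Dusp8* lies around a start inside the gene span.
Dusp8 promoter: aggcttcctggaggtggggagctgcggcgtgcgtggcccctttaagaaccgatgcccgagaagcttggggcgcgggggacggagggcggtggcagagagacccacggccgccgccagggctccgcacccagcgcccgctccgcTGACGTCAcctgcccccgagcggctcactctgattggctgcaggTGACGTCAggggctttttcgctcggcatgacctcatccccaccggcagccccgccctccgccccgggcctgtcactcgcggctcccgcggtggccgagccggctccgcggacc
Dusp1 promoter: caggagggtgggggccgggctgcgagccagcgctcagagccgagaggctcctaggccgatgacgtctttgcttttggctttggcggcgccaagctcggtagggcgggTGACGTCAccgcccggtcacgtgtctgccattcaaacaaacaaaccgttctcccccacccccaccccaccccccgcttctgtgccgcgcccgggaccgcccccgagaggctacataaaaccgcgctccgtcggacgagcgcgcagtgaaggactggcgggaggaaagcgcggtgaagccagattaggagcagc
The element was found on either strand in 588 of 32851 windows (1.79%), and 2 or more were found in 13 windows (0.0396%). The shorter letters TGACG, which are contained in the full element, were in 5 of 8 phosphatase windows against 20.8% of all windows. The GC box GGGCGG was in 7 of 8 against 35.7%. None of the 8 windows held the AP-1 letters TGANTCA (7.81% of all windows), the ETS letters CCGGAAGT (3.89%), the estrogen response element (0.0700%) or the NF-kB element (4.51%). The absence of a match says only that these letters are not in the window.

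*Dusp8* was at 4.64, 3.36, 2.46, 3.76 and 3.02 FPKM in TG1 to TG5 and at 1.70, 1.6, 0.649, 2.06 and 0.772 FPKM in WT1 to WT5. All transgenic mice were above all WT mice, with the narrowest gap between TG3 and WT4. The means were 3.45 ± 0.819 and 1.36 ± 0.615 FPKM (SD, n = 5). The log2 fold change was 1.34 ± 0.34 (SE; edgeR, adjusted p = 0.0445), and the 95% interval of the fold change ran from 1.51 to 4.24. The adjusted p was close to the threshold. With 1 mouse left out it lay between 0.0197 and 0.0961, and it passed only without TG3 or without WT4, while it missed without TG1, TG2, TG4, TG5, WT1, WT2, WT3 or WT5. It also missed with upper-quartile scaling (0.0515), with library totals only (0.0590) and without a filter on low counts (0.0616). The log2 fold change was between 1.14 and 1.54 over the fits with 1 mouse left out, and 1.36 without both TG4 and TG5 (edgeR, adjusted p = 0.180). Summed neutrophil markers also did not overlap between the groups, at 9.67 to 16.9 FPKM in HSD17B1TG and 0.864 to 5.61 FPKM in WT. Only 4 of these 9 markers passed the filter on low counts, and 7 of 9 had a mouse with 0 counts. Of the 4 tested 0 were called (2 had an unadjusted p under 0.05 in edgeR), and 0 separated the groups. The mice with the highest neutrophil sums, TG1 and among WT mice WT4, were also the highest for *Dusp8* and for summed smooth muscle markers. Summed macrophage markers were at 194 to 309 FPKM in HSD17B1TG, with TG1 highest, and at 142 to 222 FPKM in WT. Of these 10 markers 2 were called up, against 2.16% of all genes, and the median log2 fold change of the 10 was 0.18. The called ones were *Cd68* (54.1 and 18.1 FPKM in HSD17B1TG and WT) and *Itgam* (30.7 and 2.12 FPKM), both named after their values were seen. The most abundant, *C1qa* (79.1 and 67.9 FPKM) and *C1qb* (42.1 and 42.4 FPKM), were not called. Summed leucocyte markers overlapped, at 56.2 to 81.4 FPKM in HSD17B1TG and 46.6 to 95.4 FPKM in WT. Of these 8 markers 1 had a log2 fold change above 0, and the median was -0.74. The part of neutrophil, macrophage or smooth muscle RNA in the levels of *Dusp5* and *Dusp8* was not tested. *Gm32786*, which overlaps *Dusp8* on the other strand, was at 0.0367 FPKM in HSD17B1TG and listed at 0 in WT.

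**Figure D2:**
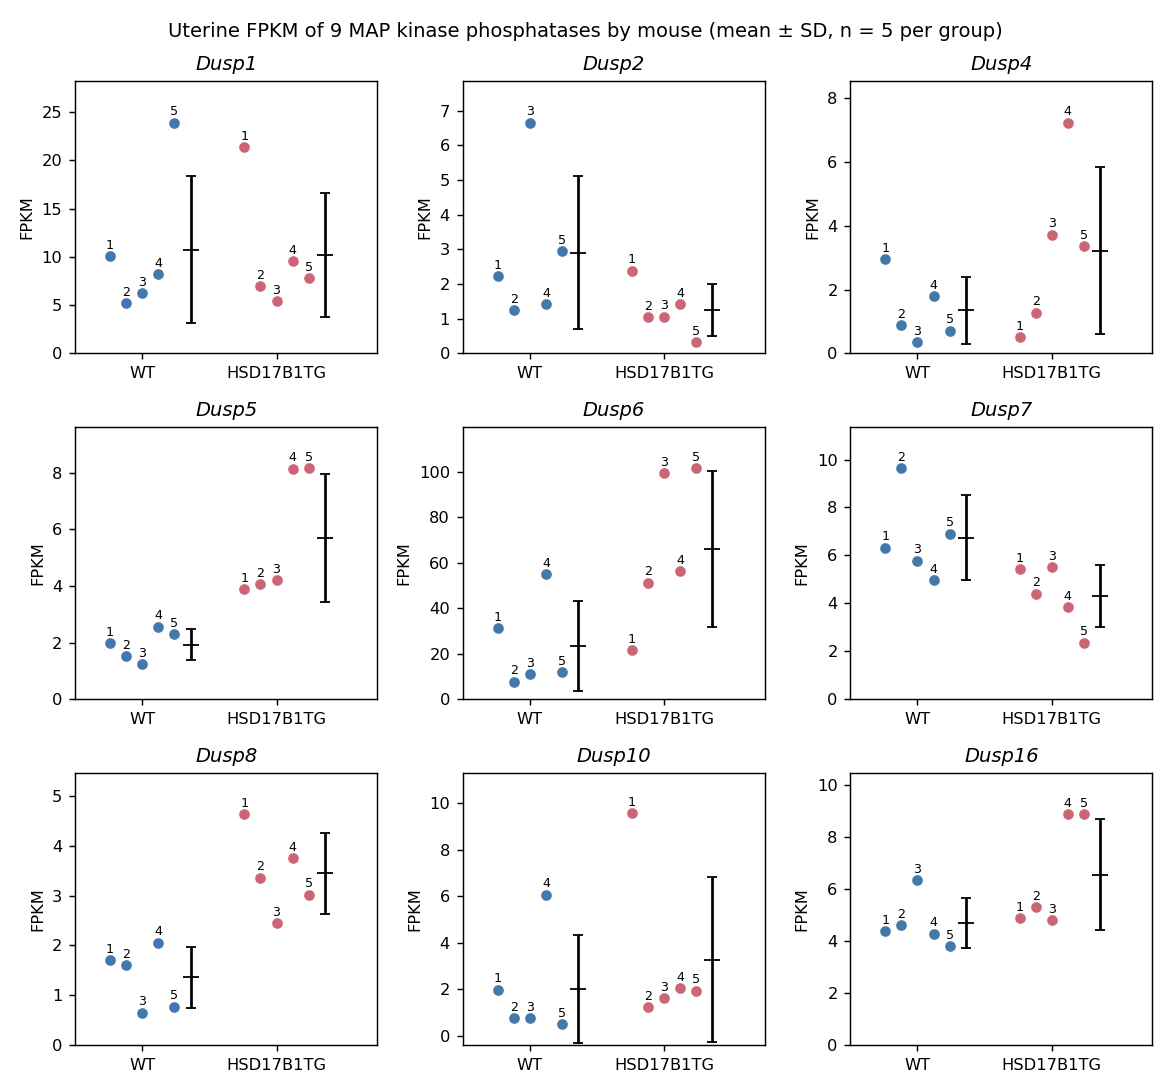
FPKM of each phosphatase gene by genotype, with 1 numbered point per mouse and the mean ± SD of 5 mice beside the points, on linear axes that differ between panels. *Dusp5* and *Dusp8* are the panels without overlap, whereas *Dusp10* stands high in TG1 (9.58) and WT4 (6.06) and *Dusp1* in TG1 (21.4) and WT5 (23.9), and the lower SD bars of *Dusp10* pass below 0.

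The other nuclear inducible phosphatases did not pass the test, and of the 4 genes of this class 2 had a log2 fold change above 0. *Dusp1* (ENSMUSG00000024190, chr17:26505590-26508519), which acts on p38, JNK and ERK and is a classical immediate early gene, was at 21.4, 6.95, 5.40, 9.59 and 7.77 FPKM in TG1 to TG5 and at 10.1, 5.23, 6.23, 8.24 and 23.9 FPKM in WT1 to WT5. A single high mouse stood apart in each group, TG1 and WT5, and the remaining mice overlapped. The log2 fold change was -0.08 ± 0.48 (SE; edgeR, adjusted p = 0.937), and the fold change had a 95% interval from 0.457 to 1.97. WT5 was also the highest mouse for 6 of 18 immediate early transcription factor genes and TG1 for 4 of 18. In WT5 *Egr1* was at 78.7 FPKM, against 1.52 to 14.7 FPKM in the other 9 mice, and *Nr4a1* was at 51.8 FPKM, against 2.05 to 9.97 FPKM. These 2 genes were named after their values were seen, and the part of such mice in the spread of *Dusp1* was not tested.

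*Dusp2* (ENSMUSG00000027368, chr2:127336159-127338376), a phosphatase best known from activated lymphocytes, was at 2.38, 1.03, 1.06, 1.42 and 0.321 FPKM in TG1 to TG5 and at 2.23, 1.24, 6.66, 1.43 and 2.95 FPKM in WT1 to WT5. WT3 was highest and TG5 lowest, and 3 HSD17B1TG mice were below every WT mouse. *Dusp2* had a log2 fold change of -1.22 ± 0.57 (SE; edgeR, adjusted p = 0.206), with a 95% interval of the fold change from 0.178 to 1.03. Without WT3 the log2 fold change was -0.68 (edgeR, adjusted p = 0.486). Summed markers of T and natural killer cells were at 9.80, 11.4, 5.09, 8.86 and 10.2 FPKM in TG1 to TG5 and at 63.1, 23.4, 111, 13 and 52.0 FPKM in WT1 to WT5. They were highest in WT3, like *Dusp2*. Of the 10 tested markers on this list 4 were called down (*Prf1*, *Nkg7*, *Ncr1* and *Gzmb*), against 2.08% of all genes. The median log2 fold change of the 10 was -2.62, and the most abundant were *Gzmb* and *Nkg7*. Only *Trac*, a T cell receptor gene named after its values were seen, was above 0. It was at 3.58 and 0.699 FPKM in HSD17B1TG and WT (log2 fold change 2.34, edgeR adjusted p = 0.0514). The part of T and natural killer cells in the level of *Dusp2* was not tested.

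*Dusp4* (ENSMUSG00000031530, chr8:34807297-34819894), a nuclear phosphatase of ERK and JNK, was at 0.509, 1.28, 3.72, 7.24 and 3.38 FPKM in TG1 to TG5 and at 2.97, 0.884, 0.362, 1.80 and 0.713 FPKM in WT1 to WT5. TG3, TG4 and TG5 were above every WT mouse, while TG1 lay below 4 of the 5 WT mice. *Dusp4* had a log2 fold change of 1.26 ± 0.71 (SE; edgeR, adjusted p = 0.289), with a 95% interval of the fold change from 0.808 to 7.05. The estimate was close to that of *Dusp8*, and its error was larger. Without both TG4 and TG5 it was 0.44 (edgeR, adjusted p = 0.811).

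*Dusp6* (ENSMUSG00000019960, chr10:99263231-99267489, 3 exons), the cytoplasmic ERK phosphatase, was the most abundant of the 9 genes in both groups. It was at 21.4, 51.3, 99.6, 56.4 and 102 FPKM in TG1 to TG5 and at 31.1, 7.73, 11.1, 55.1 and 11.8 FPKM in WT1 to WT5. TG3 and TG5 were highest, TG1 lay among the WT mice, WT1 and WT4 lay among the HSD17B1TG mice, and the other 3 WT mice were below all of them. The means were 66.1 ± 34.2 and 23.4 ± 20.0 FPKM (SD, n = 5). The difference of 1.5 ± 0.58 (SE) on the log2 scale did not pass (edgeR quasi-likelihood test, adjusted p = 0.133). The 95% interval of the fold change ran from 1.16 to 6.88. *Dusp6* passed without WT4 (log2 fold change 2.09, adjusted p = 0.0301) and in limma voom with sample quality weights (1.96, adjusted p = 0.0187).

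The order of the mice for *Dusp6* was close to that of the summed epithelial markers. These were at 760, 2498, 2730, 2148 and 3564 FPKM in TG1 to TG5 and at 1152, 865, 667, 1820 and 540 FPKM in WT1 to WT5. TG3 and TG5 were highest for both measures, WT4 was the highest WT mouse for both, and TG1 was the lowest transgenic mouse for both. Of the 12 epithelial markers 0 were called and 7 had an unadjusted p under 0.05 (edgeR), against 26.1% of all genes. A log2 fold change above 0 was found for 11, with a median of 1.24 over the list, and *Krt19* and *Krt8* were the most abundant. The part of epithelial RNA in the level of *Dusp6* was not tested. *Dusp5*, too, was highest in TG5, lowest among transgenic mice in TG1 and highest among WT mice in WT4, whereas *Dusp8* shared only the last of these. The match was not complete for any of the 3 genes. TG1, with an epithelial sum below those of WT1, WT2 and WT4, was above all WT mice for *Dusp5* and *Dusp8* and above WT2 for *Dusp6*. The part of epithelial RNA in the levels of *Dusp5* and *Dusp8* was not tested either.

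*Dusp7* (ENSMUSG00000053716, chr9:106368632-106375724), the other cytoplasmic ERK phosphatase, differed in the opposite direction. It was at 5.42, 4.40, 5.50, 3.83 and 2.35 FPKM in TG1 to TG5 and at 6.33, 9.63, 5.78, 4.98 and 6.91 FPKM in WT1 to WT5. WT4 alone lay among the transgenic mice, and the other 4 WT mice were above all of them. On the log2 scale the difference was -0.65 ± 0.26 (SE) and did not pass (edgeR quasi-likelihood test, adjusted p = 0.140), and the 95% interval of the fold change was 0.428 to 0.944. Stromal markers summed to 2364, 1171, 1010, 1379 and 629 FPKM in TG1 to TG5 and to 2115, 2176, 2578, 2379 and 2732 FPKM in WT1 to WT5, and 6 of 12 were called down. TG5 was lowest for both measures, but TG3, with the next lowest stromal sum, had the highest *Dusp7* of the transgenic mice, and among WT mice WT5 had the highest stromal sum and WT2 the highest *Dusp7*. The part of stromal RNA in the level of *Dusp7* was not tested.

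All 3 phosphatases of JNK and p38 had a log2 fold change above 0, and only *Dusp8* passed. *Dusp10* (ENSMUSG00000039384, chr1:184013302-184075636), a phosphatase of p38 and JNK, was at 9.58, 1.23, 1.62, 2.04 and 1.94 FPKM in TG1 to TG5 and at 1.99, 0.761, 0.754, 6.06 and 0.514 FPKM in WT1 to WT5. TG1 and WT4 stood far above the rest of their groups. Its log2 fold change was 0.70 ± 0.78 (SE; edgeR, adjusted p = 0.612), with a 95% interval of the fold change from 0.492 to 5.38, and it was -0.24 without TG1. Summed smooth muscle markers were highest in the same mice, at 7695 FPKM in TG1 and 6006 FPKM in WT4, against 451 to 3256 FPKM in the other 8. None of these 10 markers was called (edgeR; 0 had an unadjusted p under 0.05), *Acta2* and *Actg2* were the most abundant, and the part of smooth muscle RNA in the level of *Dusp10* was not tested. *1700056E22Rik*, on the other strand within *Dusp10*, was at 0.498 and 0.327 FPKM in HSD17B1TG and WT.

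*Dusp16* (ENSMUSG00000030203, chr6:134715468-134792625, minus strand, 7 exons), which acts mainly on JNK, had the smallest ratio of the highest to the lowest of the 10 mice (2.33). It was at 4.89, 5.30, 4.81, 8.88 and 8.87 FPKM in TG1 to TG5 and at 4.38, 4.60, 6.35, 4.28 and 3.81 FPKM in WT1 to WT5. TG4 and TG5 were above every WT mouse, while WT3 lay among the transgenic mice. TG4 and TG5 are the 2 libraries with the highest mitochondrial share and the fewest genes with a count. The log2 fold change of *Dusp16* was 0.48 ± 0.23 (SE; edgeR, adjusted p = 0.215), with a 95% interval of the fold change from 0.981 to 1.98. Without both TG4 and TG5 it was 0.09 (adjusted p = 0.847), and the part of RNA quality was not tested. An antisense gene, *Gm36328*, lies on the other strand of *Dusp16*.

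**Figure D3:**
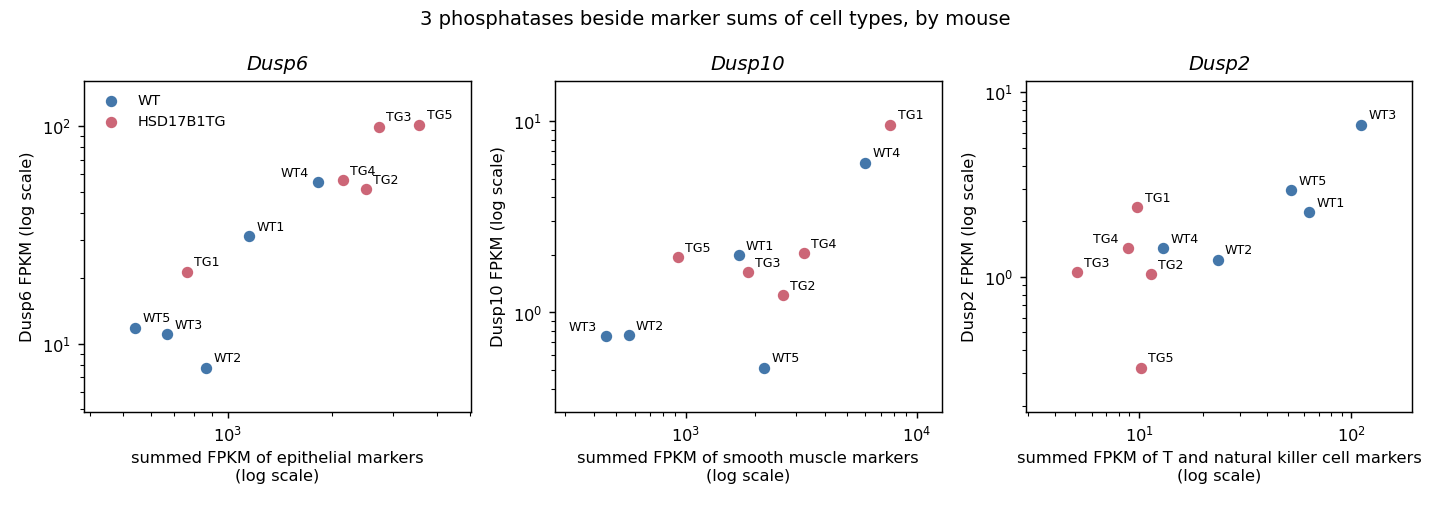
FPKM of *Dusp6*, *Dusp10* and *Dusp2* against the summed FPKM of epithelial, smooth muscle and T and natural killer cell markers, with 1 point per mouse and logarithmic axes. *Dusp6* is highest in TG3 and TG5, where epithelial sums are 2730 and 3564, *Dusp10* is highest in TG1 and WT4, and *Dusp2* is highest in WT3.

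**Figure D4:**
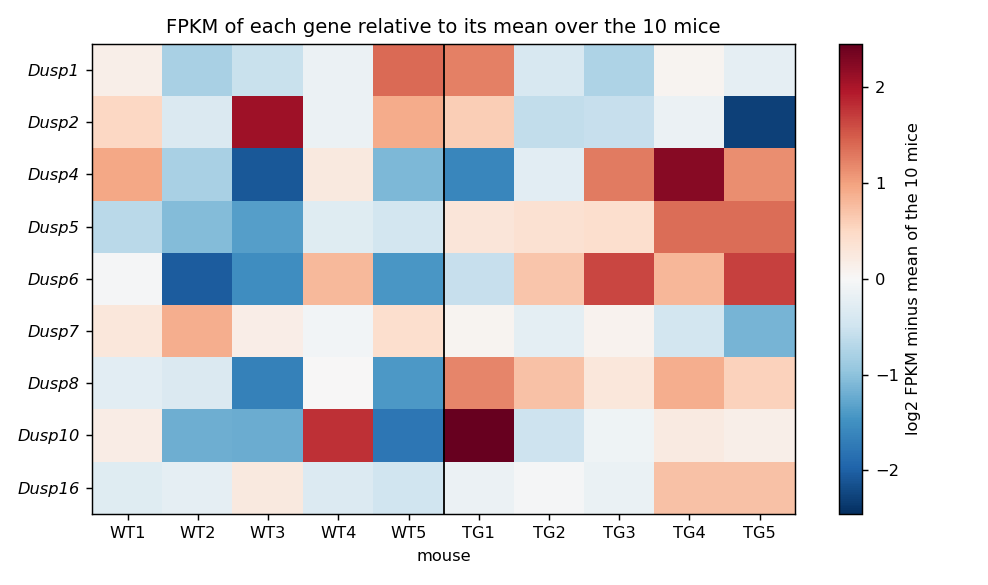
Log2 FPKM of each phosphatase gene minus its mean over the 10 mice, with a row per gene and a column per mouse. The row of *Dusp5* changes sign at the line between genotypes, that of *Dusp8* does so except for WT4, which is close to 0, and the extreme mice of the other rows differ from gene to gene.

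The mice that were extreme differed between the genes. TG1, TG4 and TG5 were each the highest mouse for 2 of 9 genes and WT2, WT3 and WT5 each for 1. The ratio of the highest to the lowest mouse was largest for *Dusp2* (20.7) and *Dusp4* (20.0) and smallest for *Dusp16* (2.33), with 6.64 for *Dusp5* and 7.14 for *Dusp8*.

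FPKM are scaled by gene length, so that levels can be compared between genes. In HSD17B1TG the order of mean levels was *Dusp6*, *Dusp1*, *Dusp16*, *Dusp5*, *Dusp7*, *Dusp8*, *Dusp10*, *Dusp4* and *Dusp2*. Only *Dusp6* and *Dusp1* were neighbours with separate ranges, and their single-mouse order held in 5 of 5 mice, although in TG1 both were at 21.4 FPKM. *Dusp5* was above *Dusp7* in 2 of 5 and *Dusp10* above *Dusp4* in 1 of 5 transgenic mice. In WT the order was *Dusp6*, *Dusp1*, *Dusp7*, *Dusp16*, *Dusp2*, *Dusp10*, *Dusp5*, *Dusp8* and *Dusp4*, and the ranges of all neighbours overlapped. The order of *Dusp10* above *Dusp5* held in 2 of 5 WT mice.

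The summed FPKM of the 9 genes was 104 ± 28.4 in HSD17B1TG and 55.1 ± 21.1 in WT (SD, n = 5), with ranges from 74.2 to 137 and from 33.2 to 86.5 that overlapped. *Dusp6* made up 60.2% ± 19.5 of this sum in HSD17B1TG and 37.4% ± 18.4 in WT. *Dusp1* made up 11.4% ± 10.01 and 20.4% ± 13.8, and *Dusp7* 4.53% ± 2.08 and 14.5% ± 8.80. The make-up thus rested on *Dusp6* in most transgenic mice, with TG1 (28.9%) as the exception, and WT4 (63.7%) and WT1 (49.6%) were the WT mice with the largest share. These sums and shares were not tested.

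**Figure D5:**
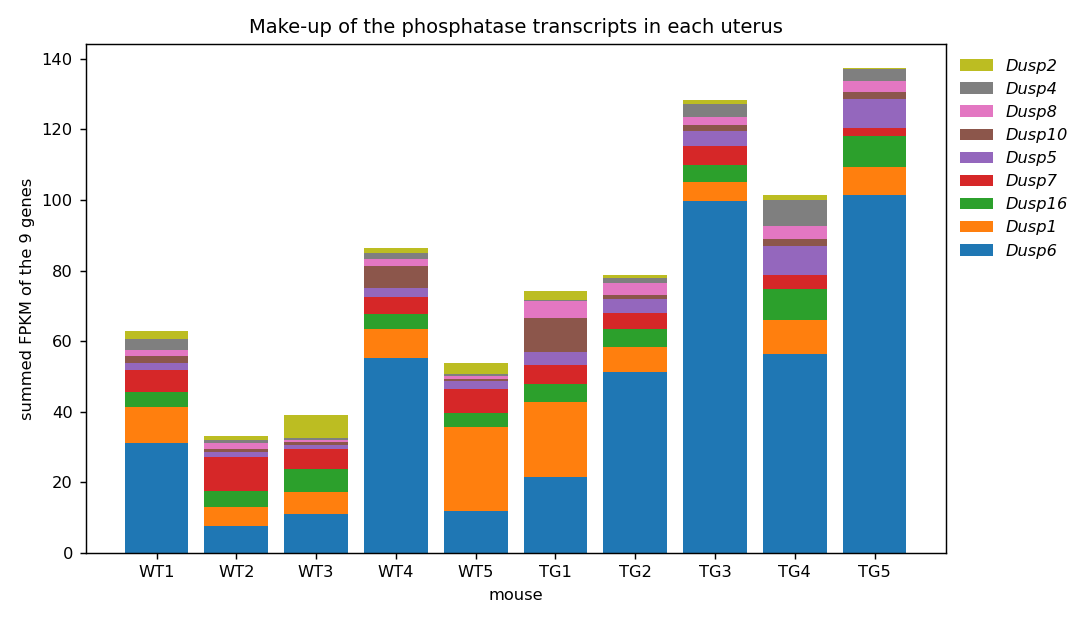
Summed FPKM of the 9 phosphatase genes in each mouse, stacked by gene, with WT mice on the left and HSD17B1TG mice on the right. *Dusp6* is the largest block in every mouse except WT2, where *Dusp7* is larger, and WT5, where *Dusp1* is larger, with *Dusp1* almost equal to it in TG1, and the sum runs from 33.2 in WT2 to 137 in TG5.

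Genes with the most similar pattern were sought among 12339 protein-coding genes by the root mean squared difference of centred log2 CPM over the 10 mice, which includes the genotype difference itself. For *Dusp5* these were *Tnfaip2* (0.261), the cation channel gene *Trpm4* (0.262) and the syntaxin gene *Stx3* (0.265), against a median of 0.944 over all genes, and all 3 were called up. For *Dusp8* they were *Synj2* (0.259), *Phactr1* (0.265) and *Specc1* (0.288), against a median of 0.947, and only *Phactr1* was called up. For *Dusp6* they were *Tmem173* (0.265), which encodes STING, the B cell receptor gene *Cd79b* (0.267) and the GTP cyclohydrolase gene *Gch1* (0.370), against a median of 1.31, and none of them was called, with adjusted p from 0.0780 to 0.104 (edgeR).

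The remaining genes of the pathway were mostly not called. *Dusp9*, the tenth gene of the family, failed the filter on low counts. Of the atypical dual-specificity phosphatases, small enzymes without the kinase-binding domain, 10 of 14 were tested and 0 were called in either direction. Their median log2 fold change was 0.15 and the smallest p belonged to *Dusp26* (log2 fold change 1.77, edgeR adjusted p = 0.130). Among 8 other phosphatases that act on MAP kinases 0 were called, the median was 0.17, and *Ptpn7*, a tyrosine phosphatase of blood cells, came nearest (-1.71, adjusted p = 0.0603). An unadjusted p under 0.05 was found for 1 gene of the atypical list and for 3 genes of the other.

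Of the MAP kinases themselves 9 of 10 were tested and 0 were called, with a median log2 fold change of -0.0034 and 3 genes with an unadjusted p under 0.05. *Mapk8*, which encodes JNK1, was at 2.95 ± 0.244 and 3.94 ± 0.497 FPKM (SD, n = 5; edgeR adjusted p = 0.0621). Of 7 MAP kinase kinases 1 was called up, 3 had an unadjusted p under 0.05, all 7 had a log2 fold change above 0 and the median was 0.30. The gene called was *Map2k6*, which activates p38, at 12.5 ± 4.43 FPKM in HSD17B1TG and 4.41 ± 1.22 FPKM in WT without overlap. Its log2 fold change was 1.5 ± 0.30 (SE; edgeR, adjusted p = 0.0256), and the gap between the groups was narrow (TG1 5.95 and WT2 5.69 FPKM). Among 19 RAS, RAF and MAP3 kinase genes 0 were called and 3 had an unadjusted p under 0.05, the median was 0.28, and *Map3k14*, the NF-kB inducing kinase, came nearest (0.89, adjusted p = 0.0742).

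Upstream, 11 of 15 EGF-family ligands and ERBB receptors were tested, 1 was called up and 7 had an unadjusted p under 0.05, against 26.1% of all genes. The gene called was *Erbb2*, a receptor tyrosine kinase, at 26.7 ± 9.21 and 12.5 ± 2.91 FPKM (SD, n = 5), with a log2 fold change of 1.09 ± 0.26 (SE; edgeR, adjusted p = 0.0388). Its groups overlapped, with TG1 at 15.3 FPKM and WT4 at 16.6 FPKM. The median of the list was 0.65, and 7 of 11 had a log2 fold change above 0. Of the 7 genes with an unadjusted p under 0.05, 4 were higher in HSD17B1TG and 3 were lower, none of the latter called. The lower ones, named after their values were seen, were the ligand genes *Nrg1* (log2 fold change -1.71, edgeR adjusted p = 0.0586) and *Nrg4* (-1.13, 0.146) and the receptor gene *Egfr* (-0.78, 0.0832). Among 11 other negative-feedback genes of RAS and ERK signalling, such as the Sprouty genes, 0 were called and 2 had an unadjusted p under 0.05. Their median was -0.01, and *Nf1*, a RAS GTPase-activating protein, came nearest (-0.33, adjusted p = 0.180).

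Among 10 ERK output genes 0 were called up and 1 was called down, with 5 at an unadjusted p under 0.05, 7 above 0 and a median log2 fold change of 0.62. The gene called down was *Myc*, a growth-related transcription factor, at 13.9 ± 1.76 FPKM in HSD17B1TG and 32.9 ± 15.9 FPKM in WT, with a log2 fold change of -1.25 ± 0.33 (SE; edgeR, adjusted p = 0.0498). This adjusted p was close to the threshold, and WT4, at 11.7 FPKM, lay among the transgenic mice. Of 18 immediate early transcription factor genes 0 were called, 5 had an unadjusted p under 0.05 and the median was 0.27. *Jund*, a subunit of AP-1, passed the adjusted p (0.0390, edgeR) but not the fold threshold, with 122 ± 17.5 and 69.4 ± 20.1 FPKM and a log2 fold change of 0.81. Over these pathway lists together 2 of 93 genes tested were called up and 1 was called down, against 2.16% and 2.08% of all genes.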

How the data were processed

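Uterine RNA of 5 HSD17B1TG and 5 WT mice was sequenced, with 1 library per mouse. Reads were mapped with HISAT2 2.0.5 to the mouse genome per the submitters' processing notes (Ensembl 94 annotation, GRCm38); the program used for counting and whether it used strand are not given in the sources used here. The authors deposited the raw count of each gene and mouse, a signal that is the count divided by a DESeq2 size factor, and FPKM scaled by the same factor and the gene length. Deposited columns with the authors' own fold change and p-value were not used.

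For the test of raw counts, edgeR 4.0.16 was run in R 4.3.3 (filterByExpr, TMM, quasi-likelihood test, Benjamini-Hochberg adjustment over 16993 genes). Standard errors are the absolute log2 fold change divided by the square root of F. A call needed an adjusted p under 0.05, a more than 2-fold change and, in either group, a mean above 1 FPKM. The similarity search used log2 CPM with a prior count of 2. Alternatives used DESeq2 1.42.0, limma 3.58.1, other scalings, filters and thresholds, and each mouse left out. A fit without both TG4 and TG5 was added after seeing the data. The scripts were tested on simulated data.

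The 9 genes and all lists were chosen with earlier results of these data known. All 9 genes are described. From each pathway or family list the called genes are named (at most 4), otherwise the gene with the smallest p. *Nrg1*, *Nrg4*, *Egfr*, *Egr1* and *Nr4a1* are named besides, after their values were seen. From each marker list at most 2 genes are named, those with the highest mean FPKM. In the macrophage and the T and natural killer cell lists further genes are named, after their values were seen. For the phosphatases that passed and for the most abundant one, the 3 most similar genes are named. Total counts per mouse and the level of 3 counts give the depth. The labels do not say whether mice shared a litter, batch or date.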

Additional observations from a re-analysis of the deposited data

Results flagged for a closer look

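In 4 of 18 groups of 5 mice (9 genes, 2 genotypes), 1 mouse lay far from the other 4 by Dixon's criterion, with a gap to its nearest neighbour over 0.710 of the range. Chance flags about 1 in 20 groups of normally distributed values, a rate that was not measured for FPKM. All 4 flagged values were at the high end, and TG1 was flagged for both genes, so they do not come from 4 separate mice. *Dusp1* was at 21.4 FPKM in TG1 (gap of 0.739 of the range) and at 23.9 FPKM in WT5 (0.741). *Dusp10* was at 9.58 FPKM in TG1 (0.903) and at 6.06 FPKM in WT4 (0.734). TG1 and WT4 were also the mice with the highest summed smooth muscle markers (7695 and 6006 FPKM), and WT5 was the highest mouse for 6 of 18 immediate early genes. The part of either in these values was not tested.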

How the results depend on the processing

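*Dusp5* kept an adjusted p under 0.05 in all 9 refits that used all mice (1.09e-04 to 0.0296), and *Dusp8* in 6 of 9 (0.00287 to 0.0616). Members called up and members with an adjusted p under 0.05 both fell from 2 to 1 with upper-quartile factors, library totals only and no filter on low counts. With limma on log2(FPKM + 1) 1 phosphatase was called up and 228 genes were called down. DESeq2 called 906 genes up and 666 down, with 2811 at an adjusted p under 0.05, and limma voom with sample quality weights gave 1083, 665 and 3283, against 367, 354 and 1046 in edgeR. The cause was not tested. With each mouse left out, genes called up ranged from 38 to 888, genes called down from 27 to 666 and genes with an adjusted p under 0.05 from 76 to 2387. Phosphatases called up ranged from 0 to 3, as did those with an adjusted p under 0.05, with 0 in 7 of the 10 fits and 3 only without WT4. Those called down stayed at 0. Those with an unadjusted p under 0.05 ranged from 3 to 7, those higher in HSD17B1TG from 5 to 7 and those without overlap from 2 to 3. The log2 fold change of *Dusp1* ran from -0.53 to 0.43 and that of *Dusp10* from -0.24 to 1.70. That of *Dusp1* reversed to 0.03 without TG2, 0.06 without TG3, 0.00799 without TG5 and 0.43 without WT5, and that of *Dusp10* to -0.24 without TG1. Without both TG4 and TG5, chosen after seeing the data, edgeR called 0 genes up and 0 down and 0 passed the adjusted p (3126 of 17794 had an unadjusted p under 0.05). Of the phosphatases 0 were called up, 0 had an adjusted p and 2 an unadjusted p under 0.05, and the log2 fold change of *Dusp1* was 0.0602. This fit has 3 transgenic mice. No paired analysis was possible because the numbers that end the labels are unexplained and only 1 of them occurs in both groups.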
